A study of Homo sapiens with 15 samples.

Results

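SNB19 cells, an established human glioblastoma line, were transduced with a lentiviral vector for the mutated full-length form of ZBTB18 (FL-mut) or with the empty vector (EV), and their transcriptomes were compared. The comparison took in 6 of the 15 libraries of the series, chosen by their construct label: FL-mut replicates 1 to 3 and EV replicates 1 to 3. All libraries came from the same line grown in DMEM with serum. The vector backbone was pCHMWS in every group, so the EV cells had also been infected. The other groups, each of 3 libraries, carried unmutated full-length ZBTB18 (FL), a short form (SF-Nte) or a mutant of the short form (SF-mut). Neither the altered residues of FL-mut nor the origin of the replicates (separate cultures or not) is given by the labels. The p-values thus measure the spread between libraries within groups, pooled over all 15 libraries, and this spread may be technical.

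ZBTB18, also called RP58 or ZNF238, is a nuclear protein with a BTB domain and C2H2 zinc fingers that represses transcription from E-box-like DNA and can recruit corepressors such as CtBP. It is needed for the development of cortical neurons. In glioblastoma it is known as a candidate tumour suppressor whose loss accompanies a mesenchymal expression state.

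Polyadenylated RNA was read as PCR-amplified cDNA on the Oxford Nanopore platform. The EV libraries held 1930245, 1371908 and 1274474 counts and the FL-mut libraries 921436, 865997 and 1313573, so the EV group was deeper on the whole. Levels below are CPM, each library's counts over its TMM-scaled total. VIM, the intermediate filament of mesenchymal cells, lay between 334 and 785 CPM in EV and between 248 and 572 CPM in FL-mut. CD44, a hyaluronan receptor, lay between 55.2 and 452 CPM in EV and between 268 and 369 CPM in FL-mut. The astrocyte filament GFAP reached at most 2.02 CPM, and S100B was listed at 0 counts in all 6 libraries. The receptor EGFR lay between 7.29 and 9.79 CPM in EV and between 0 and 4.04 CPM in FL-mut, and the glial factor SOX9 between 4.37 and 11.6 CPM and between 0 and 2.26 CPM, so both were lower in FL-mut without overlap, but their counts were too low to be tested. SOX2, a stem cell factor, lay between 10.9 and 26.7 CPM in EV and between 1.13 and 12.1 CPM in FL-mut. Of the 7 glioma line markers tested, 0 passed, 5 were below 0 and 2 above, and the median log2 fold change of FL-mut against EV was -0.59. Summed over 7 immune markers in the table, levels were 13.8 to 16 CPM in EV and 11.1 to 25.1 CPM in FL-mut. The 8 epithelial markers summed to between 56.0 and 131 CPM in EV and between 39.6 and 86.9 CPM in FL-mut, and 7 endothelial markers to between 10.9 and 24.0 CPM and between 1.13 and 26.3 CPM. The part of these markers in the results was not tested. In bulk RNA, fewer cells of a type and less RNA per cell cannot be told apart.

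Single libraries held high values that the rest of their group lacked. FL-mut replicate 2 held 113 genes at 5 or more times the next FL-mut library (values with 1 CPM added), against 46 in replicate 1 and 42 in replicate 3, and EV replicate 1 held 79 by the same measure, against 18 and 27. Across the 6767 genes tested, the Pearson correlation of log2(CPM + 1) between FL-mut libraries was 0.736 for replicates 1 and 2, 0.831 for 1 and 3 and 0.833 for 2 and 3. The 113 genes had a median GC content of 58.6%, against 46.4% for all genes tested. In the 1 of 4 equal bins of genes that was richest in GC, the median distance from the EV mean (log2 of CPM + 1) was 0.66 in FL-mut replicate 2, 0.18 in replicate 3 and -0.05 in replicate 1. EV replicate 1 had a distance of 0.34 in the same bin and EV replicate 3 one of -0.20. The part of GC content in single results was not tested beyond the corrected fit given with the alternatives.

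Of 18485 genes in the table, 6767 had enough counts to be tested with edgeR's quasi-likelihood test, and 13 (0.192%) passed a Benjamini-Hochberg adjusted p of 0.05. The 6 genes that rose (0.0887%) were ZBTB18 and 5 genes of the SPANX family. The 7 that fell (0.103%) were the calcium-binding S100A2, S100A4 and S100A6, the chemokine CCL2, the forkhead factor FOXJ3, the haem-binding PGRMC1 and the zinc finger gene ZMYM3. At an unadjusted p under 0.05 there were 389 higher genes (5.75%) and 320 lower genes (4.73%). The median log2 fold change of all genes tested was 0.04, with 3505 above 0 and 3262 below. All 3 FL-mut libraries lay above all 3 EV libraries for 566 genes (8.36%) and below them for 614 (9.07%).

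**Figure D1:**
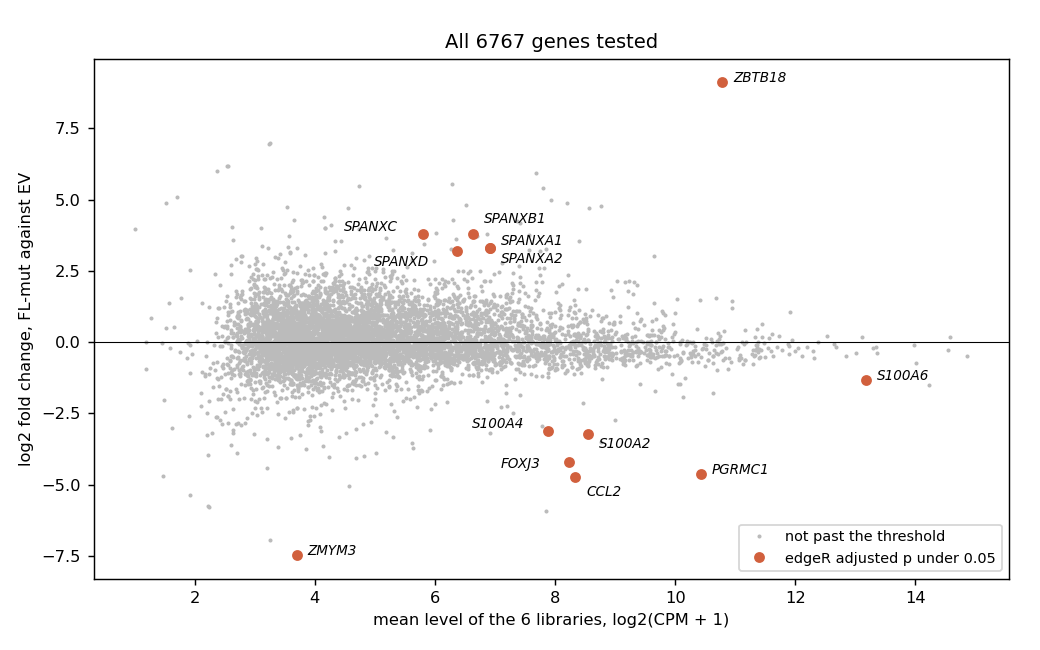
Log2 fold change of FL-mut against EV (vertical axis) by mean level of the 6 libraries as log2(CPM + 1) (horizontal axis) for each of the 6767 genes tested. The 13 genes past the edgeR threshold are in orange and named; SPANXA1 and SPANXA2 share a point, and the fitted value of ZMYM3 depends on the prior count because FL-mut held 0 counts.

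ZBTB18 itself (chr1:244048939-244057476, plus strand, GRCh38) stood at 7, 4.37 and 7.12 CPM in EV replicates 1 to 3. In FL-mut it stood at 907, 2800 and 6858 CPM. The groups did not overlap, and replicate 3 of FL-mut held the most. The log2 fold change was 9.12 ± 1.06 (SE, n = 3 each; edgeR adjusted p = 0.0017), or 8.14 without FL-mut replicate 3. ZBTB18 was past the threshold in all 6 fits with 1 library left out. Counts cannot tell the cell's own transcript from that of the vector. FL libraries held 635, 3067 and 623 CPM of ZBTB18, and the difference between FL-mut and FL did not pass (log2 1.29 ± 0.73, SE; edgeR adjusted p = 0.50).

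The S100 genes of chromosome 1 encode small EF-hand proteins that bind calcium and act on cytoskeletal and membrane partners. Of 15 listed, 8 were tested, and 3 fell (against 0.103% of all genes). S100A6 (calcyclin, chr1:153534599-153536244, minus strand) stood at 12727, 13753 and 13131 CPM in EV and 5698, 5984 and 4106 CPM in FL-mut. The EV libraries lay close together and every FL-mut library lay far below them. The log2 fold change was -1.33 ± 0.22 (SE, n = 3 each; edgeR adjusted p = 0.021).

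S100A4 (chr1:153543613-153550136, minus strand), a protein studied for its role in cell motility and metastasis, stood at 238, 354 and 671 CPM in EV. In FL-mut it stood at 53.5, 53.2 and 36.9 CPM. No FL-mut library came near the lowest EV library, and the log2 fold change was -3.14 ± 0.49 (SE; edgeR adjusted p = 0.021). S100A4 overlaps S100A3 on the same strand, so reads could be split between them. S100A2 (chr1:153561108-153567890, minus strand) stood at 441, 597 and 978 CPM in EV and 86.9, 80.4 and 49.4 CPM in FL-mut, again with no overlap. Its log2 fold change was -3.22 ± 0.60 (SE; edgeR adjusted p = 0.043). In all 3 genes FL-mut replicate 3 held the lowest level.

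The windows of 250 bases upstream of the RefSeq start sites of these 3 genes (GRCh38.p14, minus strand) are shown because ZBTB18 is known to bind DNA of E-box type. The core CATCTG, or its reverse complement CAGATG, was searched on both strands and is in capitals.
S100A6, chr1:153535992-153536241: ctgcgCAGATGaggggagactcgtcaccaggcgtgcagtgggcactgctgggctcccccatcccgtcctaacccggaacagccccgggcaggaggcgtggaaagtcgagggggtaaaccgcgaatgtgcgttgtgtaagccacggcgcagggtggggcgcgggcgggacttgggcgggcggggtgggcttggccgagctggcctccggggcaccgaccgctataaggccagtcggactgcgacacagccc
S100A4, chr1:153545807-153546056: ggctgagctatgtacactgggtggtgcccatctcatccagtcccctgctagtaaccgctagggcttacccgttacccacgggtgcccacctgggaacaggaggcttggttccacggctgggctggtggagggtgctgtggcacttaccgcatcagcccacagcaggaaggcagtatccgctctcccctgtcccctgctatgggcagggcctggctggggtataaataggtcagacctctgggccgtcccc
S100A2, chr1:153565845-153566094: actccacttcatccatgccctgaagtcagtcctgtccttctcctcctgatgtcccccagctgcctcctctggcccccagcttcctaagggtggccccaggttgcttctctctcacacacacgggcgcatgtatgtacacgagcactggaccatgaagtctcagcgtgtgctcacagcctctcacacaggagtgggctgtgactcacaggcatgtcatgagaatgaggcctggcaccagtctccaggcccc
Of these windows, that of S100A6 alone held the core, 245 bases before the start. Of all RefSeq promoters 12.2% held it, and of tested genes with a promoter 7.86% (415 of 5283). It was in 1 of 6 windows of genes that fell (S100A6) and 1 of 6 of genes that rose (ZBTB18). It was in 9.13% of the 449 windows of genes whose FL-mut libraries all lay lower and 7.59% of the 435 whose FL-mut libraries all lay higher. A match describes letters and is not evidence of binding.

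The other tested S100 genes did not pass. S100A3 stood at 15, 12.4 and 3.56 CPM in EV and 2.02, 1.13 and 0.737 CPM in FL-mut, and S100A13 at 552, 524 and 1013 against 297, 469 and 535 CPM. S100A11 had a log2 fold change of 0.14 ± 0.29 (SE) and S100A16 one of 0.70 ± 0.51. S100A10, the partner of annexin A2, stood at 115, 26.2 and 46.3 CPM in EV and 70.7, 575 and 110 CPM in FL-mut, with the high value in FL-mut replicate 2. The list median was -1.01, with 5 members below 0 and 3 above. S100A3, S100A10, S100A11 and S100A13 were named after their values were seen.

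SPANX genes encode small nuclear proteins of spermatids and are expressed outside the testis in some tumours. All 5 tested members, of 10 listed, rose (against 0.0887% of all genes), and all lie on the long arm of chromosome X. SPANXC was at most 8.01 CPM in EV, and it met the count filter through FL-mut and FL, where it was high. The share of tested members that rose was thus partly set by the filter. SPANXB1 (chrX:141002591-141003706, plus strand) stood at 16, 14.6 and 8.01 CPM in EV and 251, 56.6 and 243 CPM in FL-mut. Its log2 fold change was 3.81 ± 0.63 (SE, n = 3 each; edgeR adjusted p = 0.021). SPANXC (chrX:141241463-141242496, minus strand) stood at 8, 5.83 and 8.01 CPM in EV and 189, 46.4 and 72.3 CPM in FL-mut (log2 3.79 ± 0.62; adjusted p = 0.021). In both genes the groups were far apart, and FL-mut replicate 2 was the lowest of its group.

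SPANXD (chrX:141697411-141698739, minus strand) stood at 20, 18.2 and 9.79 CPM in EV and 245, 77.0 and 119 CPM in FL-mut (log2 3.18 ± 0.53, SE; edgeR adjusted p = 0.021). SPANXA1 (chrX:141583674-141585011, minus strand) stood at 27.5, 24.0 and 14.2 CPM in EV and 373, 98.5 and 179 CPM in FL-mut (log2 3.29 ± 0.57; adjusted p = 0.022). SPANXA2 (chrX:141589435-141590772), which lies beside SPANXA1 on the opposite strand, had nearly the same value in every library. These genes are near-identical copies, so reads could be shared out among them and the number of members that rose is uncertain. Without FL-mut replicate 1, the log2 fold change was 2.96 for SPANXC, 2.55 for SPANXD and 2.60 for SPANXA1 and SPANXA2, and no SPANX gene passed.

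The likeness of the copies extends upstream of their starts, as 3 of the RefSeq windows of 250 bases (GRCh38.p14) show. Capitals mark the run of 80 bases that the 3 windows share.
SPANXA1, chrX:141584739-141584988, minus strand: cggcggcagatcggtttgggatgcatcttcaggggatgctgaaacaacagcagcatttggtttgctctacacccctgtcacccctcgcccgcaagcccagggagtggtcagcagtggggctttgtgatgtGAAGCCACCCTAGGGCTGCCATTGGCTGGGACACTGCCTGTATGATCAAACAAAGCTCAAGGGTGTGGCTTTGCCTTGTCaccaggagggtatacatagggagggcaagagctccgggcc
SPANXC, chrX:141242518-141242767, minus strand: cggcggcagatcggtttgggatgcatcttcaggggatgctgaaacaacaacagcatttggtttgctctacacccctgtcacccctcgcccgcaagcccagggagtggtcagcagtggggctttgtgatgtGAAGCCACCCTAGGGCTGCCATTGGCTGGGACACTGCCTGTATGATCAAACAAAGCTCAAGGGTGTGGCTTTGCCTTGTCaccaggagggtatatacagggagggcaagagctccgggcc
SPANXB1, chrX:141002344-141002593, plus strand: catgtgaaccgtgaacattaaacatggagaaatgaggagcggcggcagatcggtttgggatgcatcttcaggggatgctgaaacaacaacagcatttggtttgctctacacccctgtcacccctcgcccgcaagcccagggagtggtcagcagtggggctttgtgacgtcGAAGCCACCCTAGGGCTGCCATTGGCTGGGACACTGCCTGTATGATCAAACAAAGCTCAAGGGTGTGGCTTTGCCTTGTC
Position by position, SPANXA1 and SPANXC were the same at 247 of 250 bases (98.8%), and the window of SPANXA2 was the same as that of SPANXA1 at all 250. The SPANXB1 window was offset from theirs. The last 16 bases of the SPANXD window read the same as the first 16 of the SPANXB1 window, although these windows lie apart and on opposite strands. The stretch shown was not compared for SPANXD. None of the 5 held CATCTG or CAGATG.

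**Figure D2:**
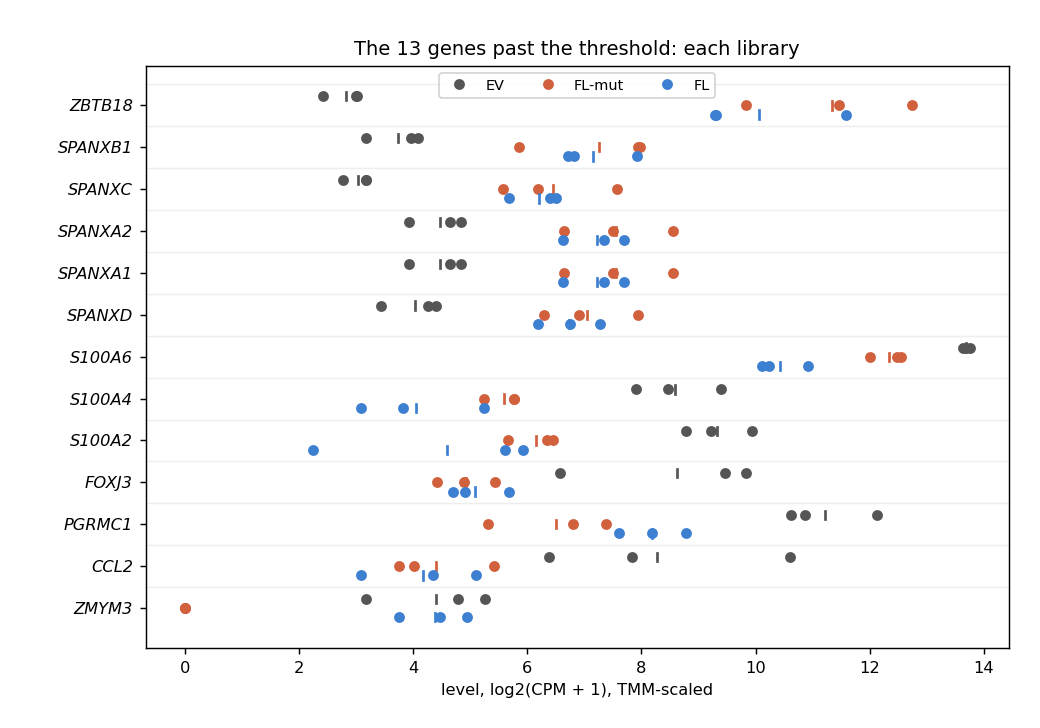
Level of each gene past the threshold in each library as log2(CPM + 1), with EV in grey, FL-mut in orange and FL in blue, and a tick at each group mean. EV and FL-mut do not overlap in any of the 13 genes; S100A6 in FL-mut lies between EV and FL, and ZMYM3 is at 0 in FL-mut alone.

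CCL2 (chr17:34255218-34257203, plus strand) encodes a chemokine that attracts monocytes. It stood at 82.5, 227 and 1550 CPM in EV and 15.1, 41.9 and 12.5 CPM in FL-mut. The EV libraries spread widely, with replicate 3 far above the others, but the groups did not overlap. The log2 fold change was -4.75 ± 0.90 (SE, n = 3 each; edgeR adjusted p = 0.043), or -5.50 when FL-mut replicate 2 was left out and -2.81 (adjusted p = 0.17) when EV replicate 3 was. In FL it stood at 33.3, 7.46 and 19.4 CPM (FL against EV log2 -4.90 ± 0.90; edgeR adjusted p = 0.028). RefSeq's promoter table had no entry for it. Its list of chemokines, cytokines and NF-kB feedback genes had 6 tested members, with 4 below 0 and 2 above. Of these 6, 1 fell and 0 rose (against 0.103% and 0.0887% of all genes). The median of that list was -0.77, from -1.19 to 0.28 under the alternatives.

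PGRMC1 (chrX:119236245-119244466, plus strand), a membrane protein that binds haem and partners cytochrome P450 enzymes of sterol metabolism, stood at 1868, 4491 and 1571 CPM in EV. In FL-mut it stood at 110, 38.5 and 166 CPM, all far below EV. The log2 fold change was -4.65 ± 0.89 (SE, n = 3 each; edgeR adjusted p = 0.046). Its list of haem handling genes and partners had 17 tested members. Of these, 1 fell (PGRMC1) and 0 rose (against 0.103% and 0.0887% of all genes). PGRMC1 lay below EV with the other constructs too, at 55.6, 18.5 and 20.5 CPM in SF-mut and 116, 576 and 24.9 CPM in SF-Nte. In FL it stood at 193, 437 and 288 CPM. The paralogue PGRMC2 stood at 52.0, 30.6 and 26.7 CPM in EV and 26.3, 13.6 and 20.6 CPM in FL-mut, and did not pass (log2 -0.85 ± 0.72). It was named after its values were seen.

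FOXJ3 (chr1:42176539-42335877, minus strand), a forkhead transcription factor, stood at 913, 94.0 and 708 CPM in EV and 42.4, 20.4 and 28.8 CPM in FL-mut. EV replicate 2 was well below the other EV libraries but above every FL-mut library. The log2 fold change was -4.22 ± 0.73 (SE, n = 3 each; edgeR adjusted p = 0.022). In FL, FOXJ3 stood at 49.9, 24.9 and 29 CPM (FL against EV log2 -4.03 ± 0.72; edgeR adjusted p = 0.028). It stood at 49.0, 18.5 and 36.9 CPM in SF-mut and at 243, 56.5 and 164 CPM in SF-Nte.

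ZMYM3 (chrX:71239624-71255146, minus strand), an MYM-type zinc finger protein found with LSD1 and HDAC complexes, stood at 8, 37.2 and 26.7 CPM in EV (97 counts in all). All 3 FL-mut libraries held 0 counts. Taking 3 counts over the group as the floor (0.929 CPM), it was at least 25.8-fold lower, and edgeR gave an adjusted p of 0.021. The floor covers counting error only, since the reads come from PCR and carry no molecular identifiers. Levels were 29.8, 12.4 and 21.3 CPM in FL and 16.3, 33.9 and 39.0 CPM in SF-mut, so among the libraries of these 4 groups 0 counts occurred in FL-mut alone. The list of CtBP, LSD1 and HDAC corepressor complexes had 16 tested members. Of these, 1 fell (ZMYM3) and 0 rose (against 0.103% and 0.0887% of all genes). HDAC2 stood at 85.5, 42.3 and 35.6 CPM in EV and 105, 112 and 97.3 CPM in FL-mut, and the demethylase KDM1A (LSD1) at 18.0, 18.9 and 9.79 CPM and 9.09, 7.92 and 9.58 CPM. Neither passed, and both were named after their values were seen. The list median was -0.05 and took either sign under other scalings.

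Most of these calls were lost in some of the fits that left out 1 library. Those fits also tested more genes (from 7254 to 7321, against 6767) on fewer libraries. With 1 of the 6 libraries left out in turn, S100A4, ZMYM3 and CCL2 passed in 3 fits, S100A6, FOXJ3 and the 5 SPANX genes in 2, and S100A2 and PGRMC1 in 1. Leaving out FL-mut replicate 1, FL-mut replicate 3 or EV replicate 3 kept 1 gene, ZBTB18. The count was 5 without EV replicate 2, 19 without FL-mut replicate 2 and 28 without EV replicate 1. Every one of the 13 genes kept its direction in each of these fits. That was near certain beforehand, since EV and FL-mut did not overlap in any of them.

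**Figure D3:**
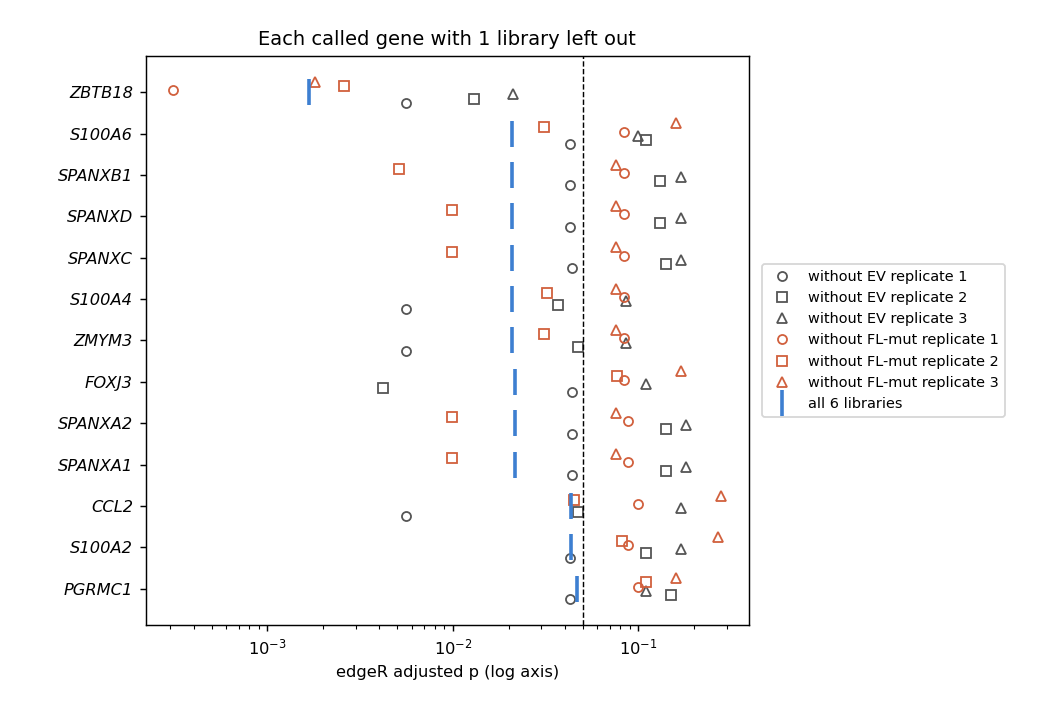
Adjusted p of edgeR (horizontal log axis) for each of the 13 genes with all libraries (blue bar) and with 1 EV library (grey) or 1 FL-mut library (orange) left out. The dashed line is 0.05; ZBTB18 is left of it in all 6 fits, and the highest value, 0.28, is that of CCL2 without FL-mut replicate 3.

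Among genes not past the threshold, the 10 of lowest p in each direction whose groups did not overlap had adjusted p between 0.056 and 0.12. CRABP2, which carries retinoic acid to the nucleus, stood at 21.5, 20.4 and 15.1 CPM in EV and 380, 456 and 860 CPM in FL-mut (log2 4.88 ± 0.96, SE; edgeR adjusted p = 0.056). CAV2, a caveolin, stood at 24.0, 13.1 and 16 CPM in EV and 79.8, 49.8 and 114 CPM in FL-mut (log2 2.18 ± 0.44; adjusted p = 0.069). MICA, a stress ligand of the NKG2D receptor, stood at 234, 187 and 221 CPM in EV and 627, 568 and 1600 CPM in FL-mut. The other higher genes were the phosphatase subunit PPP6C (log2 2.42), the sorting nexin SNX3 (2.37), the retrieval receptor KDELR3 (4.11, overlapping DDX17 on the opposite strand) and CCZ1B (2.31, or 2.98 without EV replicate 1; a near-copy of CCZ1). KDELR3, at most 2.67 CPM in EV, and SEMA4D, described next, met the count filter through other groups. Their place among the higher genes was thus partly set by the filter.

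A further 3 of these genes varied together across libraries. The cholesterol exporter of lysosomes NPC1 stood at 159, 66.8 and 1192 CPM in FL-mut replicates 1 to 3 and between 13.1 and 17.8 CPM in EV. SEMA4D, a semaphorin, stood at 157, 29.4 and 1026 CPM in FL-mut and 5 to 8.90 CPM in EV. MED9, a Mediator subunit, stood at 145, 60.0 and 1088 CPM in FL-mut and 7.29 to 15.1 CPM in EV. Each was highest in FL-mut replicate 3 and lowest in replicate 2. In FL replicates 1 to 3 NPC1 stood at 46.5, 719 and 219 CPM, SEMA4D at 22.9, 520 and 163 CPM and MED9 at 28.4, 642 and 196 CPM. The libraries with the most ZBTB18 in FL-mut and in FL were also the highest in these genes. Yet FL-mut replicate 2 held more ZBTB18 than replicate 1 (2800 against 907 CPM) and less of each of these genes. FL replicates 1 and 3 held nearly the same ZBTB18 but unlike levels of these genes. SF-mut replicate 2, which carried the short form, held 3631 CPM of ZBTB18, 9.25 CPM of NPC1 and 0 of SEMA4D and MED9. Whether these levels depend on that of ZBTB18 was not tested. The log2 fold changes were 4.99 ± 1.08 (SE), 5.94 ± 1.32 and 5.39 ± 1.21 (edgeR adjusted p = 0.078, 0.090 and 0.093), or 2.88, 3.78 and 3.27 without FL-mut replicate 3.

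On the lower side stood WASHC3, a subunit of the endosomal WASH complex, at 157, 256 and 387 CPM in EV and 54.5, 54.3 and 110 CPM in FL-mut (log2 -1.86 ± 0.39, SE; edgeR adjusted p = 0.073). The pyrophosphatase PPA1 stood at 447, 731 and 1485 CPM in EV and 124, 132 and 144 CPM in FL-mut (log2 -2.73 ± 0.57; adjusted p = 0.074). NUP107, a nuclear pore scaffold protein, stood at 140, 560 and 460 CPM in EV and 52.5, 49.8 and 48.7 CPM in FL-mut. The actin-binding CALD1 (caldesmon) stood at 250, 133 and 291 CPM in EV and 90.9, 55.5 and 47.2 CPM in FL-mut, and PALLD (palladin) at 167, 270 and 284 CPM and 92.9, 22.6 and 37.6 CPM. LRMDA stood at 20, 40.1 and 211 CPM in EV and 4.04, 10.2 and 5.90 CPM in FL-mut (log2 -3.73, or -2.20 without EV replicate 3). The remaining lower genes were BPNT1 (-1.70), SNRNP35 (-2.01), NDUFA2 and MT1F, the last 2 described with their lists. PALLD and SNRNP35 overlap genes on the opposite strand, and whether counting used strand is unknown.

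Sterol genes stood higher in FL-mut without any member passing the test. The enzymes of cholesterol synthesis convert acetyl-CoA through mevalonate and squalene to cholesterol. Of 18 tested members, 17 were above 0 and 1 below, with a median log2 fold change of 1.17 against 0.04 for all genes. By edgeR 0 passed in either direction, 5 had an unadjusted p under 0.05, all higher (against 5.75% of all genes), and in 5 all FL-mut libraries lay above all EV libraries (against 8.36% of all genes). DHCR7, a reductase that yields cholesterol itself, stood at 7, 4.37 and 5.34 CPM in EV and 21.2, 54.3 and 56.0 CPM in FL-mut (log2 2.94 ± 0.78, SE; edgeR adjusted p = 0.17). DHCR7 and SQLE, which was at most 4.37 CPM in EV, are among the 5 without overlap. They met the count filter through other groups, so these shares were partly set by the filter. SQLE was named after its values were seen. Squalene synthase, FDFT1, stood at 247, 236 and 313 CPM in EV and 576, 572 and 2005 CPM in FL-mut (1.99 ± 0.54; adjusted p = 0.18), and its log2 fold change was 1.06 without FL-mut replicate 3.

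The sterol list was not uniform among FL-mut libraries. Its median distance from the EV mean was 1.22 in replicate 1, -0.08 in replicate 2 and 1.35 in replicate 3, on the log2(CPM + 1) scale. HMGCS1, which makes the precursor of mevalonate, stood at 44.4, 6.79 and 75.9 CPM in FL-mut and 6, 3.64 and 26.7 CPM in EV. IDI1, an isomerase of the isoprenoid steps, stood at 60.6, 14.7 and 107 CPM in FL-mut and 17.5, 16 and 32.9 CPM in EV. Both were named after their values were seen, and in both FL-mut replicate 2 lay within the EV range. Without FL-mut replicate 3 the list median was 0.75.

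Of 13 tested SREBP regulators and sterol uptake genes, 0 passed, 8 were above 0 and the median was 0.43. INSIG1, which retains SREBP in the endoplasmic reticulum when sterols are plentiful, stood at 4.50, 8.74 and 15.1 CPM in EV and 25.2, 10.2 and 38.3 CPM in FL-mut. Fatty acid synthesis and activation genes were mixed, with 8 of 14 above 0 and a median of 0.42. ACACA, the acetyl-CoA carboxylase that commits carbon to fatty acids, stood at 51.5, 53.9 and 42.7 CPM in EV and 14.1, 20.4 and 19.2 CPM in FL-mut, with no overlap (log2 -1.46 ± 0.47, SE; edgeR adjusted p = 0.27). C17orf78 overlaps it on the opposite strand.

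**Figure D4:**
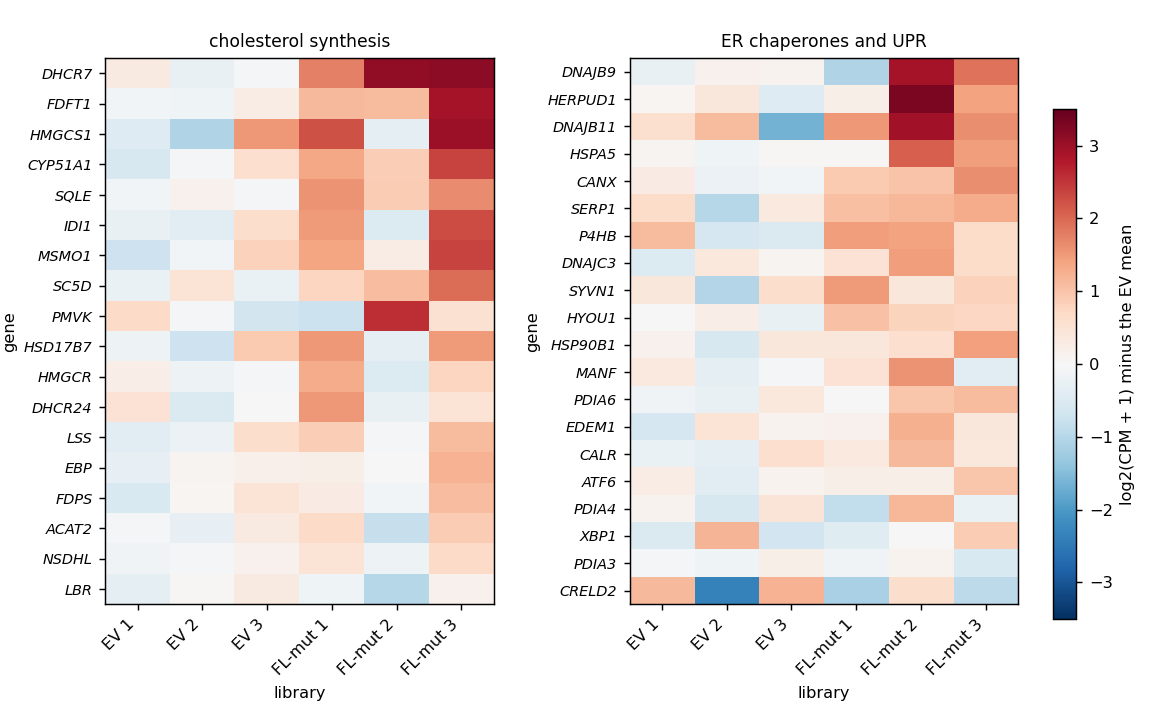
Tested members of the cholesterol synthesis list (left) and of the endoplasmic reticulum chaperone and unfolded protein response (UPR) list (right) in each EV and FL-mut library, as log2(CPM + 1) minus the EV mean of that gene (colour bar). FL-mut replicates 1 and 3 are mostly red on the left, where replicate 2 is mixed, whereas replicates 2 and 3 are the redder libraries on the right.

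Chaperones and stress genes of the endoplasmic reticulum showed a different pattern among libraries. Of 20 tested members 18 were above 0, the median was 0.84, 6 had an unadjusted p under 0.05, all higher (against 5.75% of all genes), and 0 passed by edgeR. In 5 members all FL-mut libraries lay above EV (against 8.36% of all genes). CANX (calnexin), a lectin chaperone of glycoproteins, stood at 198, 140 and 150 CPM in EV and 303, 319 and 498 CPM in FL-mut (log2 1.20 ± 0.32, SE; edgeR adjusted p = 0.17). DNAJB11, a cochaperone of BiP, stood at 16, 24.0 and 2.67 CPM in EV and 32.3, 88.3 and 34.7 CPM in FL-mut. The list's median distance from EV was 0.28 in FL-mut replicate 1, 1.14 in replicate 2 and 0.85 in replicate 3. The list of ATF4 amino acid response genes had 12 of 17 members above 0 (median 0.49, but -0.17 without FL-mut replicate 2) and 0 past the threshold.

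Targets of YAP and TGF-beta and genes of the extracellular matrix had members on both sides of 0, and none passed. Of 10 tested YAP and TGF-beta targets 8 were below 0, with a median of -0.82, and in 4 all FL-mut libraries lay below EV (against 9.07% of all genes). TGFBI, a secreted adhesion protein, stood at 149, 53.9 and 63.2 CPM in EV and 3.03, 18.1 and 2.21 CPM in FL-mut (log2 -3.55 ± 0.97, SE; edgeR adjusted p = 0.18), and its log2 fold change ran from -2.96 (EV replicate 1 left out) to -5.06 (FL-mut replicate 2 left out). ANKRD1, a YAP target, stood at 11, 21.1 and 22.3 CPM in EV and 8.08, 5.66 and 4.42 CPM in FL-mut. CTGF, a canonical YAP target, went the other way, at 17.5, 9.47 and 6.23 CPM in EV and 87.9, 15.8 and 20.6 CPM in FL-mut. It was named after its values were seen. By edgeR 0 members passed, and at an unadjusted p under 0.05 there were 1 higher and 3 lower (against 5.75% and 4.73% of all genes). The list median was -0.52 without FL-mut replicate 3.

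Of 15 extracellular matrix genes tested, 0 passed and 11 were below 0 (median -0.38, or -0.82 without FL-mut replicate 1). SPARC stood at 174, 198 and 614 CPM in EV and 154, 126 and 140 CPM in FL-mut, and COL5A1, whose counts were all even, at 7, 27.7 and 105 CPM and 0, 6.79 and 1.47 CPM. PLAU, urokinase, stood at 15, 16.8 and 26.7 CPM in EV and 5.05, 2.26 and 2.95 CPM in FL-mut, in a list of plasminogen activators and matrix proteases with 9 of 14 below 0. Of the 25 tested mesenchymal glioblastoma genes, 0 passed, 15 were below 0 and 10 above, and the median was -0.23 (from -0.57 without EV replicate 2 to -0.07 without EV replicate 1). CAV2, the member of lowest p and described above, stood higher in FL-mut (log2 2.18). FOSL2, also with even counts in every library, stood at 27.0, 26.2 and 89.0 CPM in EV and 14.1, 2.26 and 2.95 CPM in FL-mut.

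**Figure D5:**
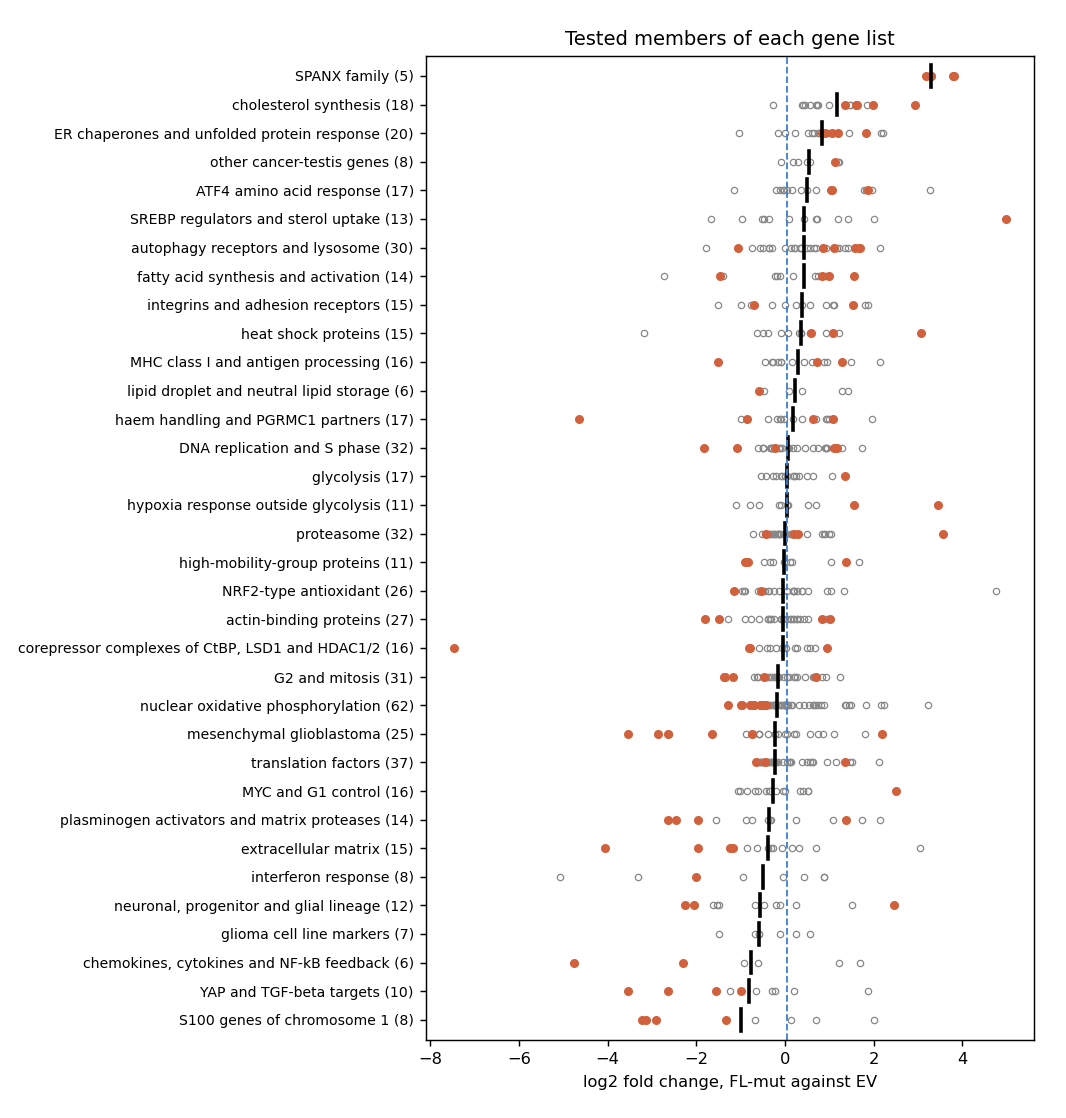
Log2 fold change of FL-mut against EV for each tested member (circles) of the gene lists with 5 or more tested members (1 such list is not shown), with the number tested in parentheses. Filled orange circles are members whose 3 FL-mut libraries all lie above or all below the 3 EV libraries, black bars are list medians, and the dashed line is the median of all genes tested, 0.04; the medians run from -1.01 (S100) to 3.29 (SPANX).

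Nuclear genes of oxidative phosphorylation differed little in size. Of 62 tested, 38 were below 0, the median was -0.18, and in 13 all FL-mut libraries lay below EV while in 0 all lay above (against 9.07% and 8.36% of all genes). NDUFA2, a subunit of complex I, stood at 435, 584 and 857 CPM in EV and 283, 244 and 240 CPM in FL-mut (log2 -1.29 ± 0.27, SE; edgeR adjusted p = 0.075), and it overlaps IK and TMCO6 on the opposite strand. ATP5G2, a subunit of the ATP synthase ring, stood at 2278, 2161 and 2993 CPM in EV and 1679, 845 and 1288 CPM in FL-mut. At an unadjusted edgeR p under 0.05 there were 2 higher and 11 lower members (against 5.75% and 4.73% of all genes), and 0 passed after adjustment. The median was -0.05 when libraries were scaled by their totals alone, where the median of all genes was 0.14.

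Metallothioneins, which bind zinc and copper, had 3 tested members, all below 0 with a median of -1.47, and 0 past the threshold. MT2A stood at 995, 1399 and 1669 CPM in EV and 551, 823 and 479 CPM in FL-mut. MT1F stood at 13, 21.1 and 76.6 CPM in EV and 3.03, 0 and 6.64 CPM in FL-mut, and MT1X at 49.5, 112 and 158 CPM and 31.3, 49.8 and 33.9 CPM. MT2A and MT1F lay lower in FL-mut with no overlap between groups (2 of 3 members, against 9.07% of all genes). For MT1X the highest FL-mut library and the lowest EV library lay side by side. The adjusted p of edgeR was between 0.12 and 0.20 for the 3 genes. MT2A was named after its values were seen.

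Cells with the mutated form were compared directly with cells with the unmutated one, FL-mut against FL. By edgeR 6 genes passed (0.0887%), 4 higher and 2 lower in FL-mut, with 821 at an unadjusted p under 0.05 (12.1%). ZBTB18 stood at 907 to 6858 CPM in FL-mut and 623 to 3067 CPM in FL. Effects of the mutation and of construct level therefore cannot be told apart. The count was 2 when FL replicate 3 was left out, and 3 for FL replicate 2 or FL-mut replicate 3. It was 0 when the fit held the 6 libraries alone, and 0 when it held EV, FL and FL-mut alone (edgeR, with 785 and 997 genes at an unadjusted p under 0.05). FL against EV and FL-mut against EV share the EV libraries, so their values are set side by side only. S100A6 stood at 1931, 1208 and 1109 CPM in FL, below the 4106 to 5984 CPM of FL-mut, and FL-mut was higher by 1.89 ± 0.23 (log2, SE, n = 3 each; edgeR adjusted p = 0.0019). For S100A4 (13.2, 7.46 and 36.8 CPM in FL) the difference was 1.30 ± 0.49 (adjusted p = 0.33), and for S100A2 (47.9, 3.73 and 60.0 CPM in FL) it was 0.93 ± 0.58 (0.54). For the 5 SPANX genes the difference lay between 0.28 and 0.48, with SE from 0.48 to 0.55 and adjusted p from 0.75 to 0.90. All 5 were also higher in FL than in EV, with FL libraries at 50.3 to 240 CPM. Their log2 fold changes of FL against EV ran from 2.76 to 3.53 (edgeR adjusted p from 0.028 to 0.046). These p-values do not show that the constructs acted alike on these genes.

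Of the other 5 genes that separated FL-mut from FL, ZMYM3 also passed between FL-mut and EV and 4 did not. HMGN3, a nucleosome-binding protein, stood at 482, 390 and 441 CPM in EV, 209, 237 and 259 CPM in FL-mut and 43.7, 62.2 and 39.7 CPM in FL. FL-mut thus lay between the groups with no overlap, with a log2 difference from EV of -0.90 ± 0.27 (SE; edgeR adjusted p = 0.23). LGALS1 (galectin-1) stood at 2375, 1300 and 2259 CPM in EV and 617, 1969 and 1010 CPM in FL-mut, which overlapped, and at 202, 83.3 and 138 CPM in FL. S100A16 stood at 387, 211 and 177 CPM in EV and 298, 678 and 290 CPM in FL-mut, which also overlapped, and at 75.6, 36.1 and 17.4 CPM in FL. SLC35D2, a nucleotide sugar transporter, stood at 57.0, 59.0 and 65.0 CPM in EV, 18.2, 27.2 and 11.1 CPM in FL-mut and 99.9, 157 and 98.7 CPM in FL. Its log2 difference from EV was -1.69 ± 0.43 (SE; edgeR adjusted p = 0.16). PGRMC1 stood at 193, 437 and 288 CPM in FL, above each FL-mut library, but the difference of -1.53 ± 0.79 did not pass (adjusted p = 0.45).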

How the data were processed

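The authors deposited raw counts, whole numbers for each gene symbol in each library. Per the labels' protocols, Trizol RNA was enriched for mRNA on beads, amplified by PCR as barcoded cDNA and sequenced with Oxford Nanopore kits. GRCh38 is named in the submitters' processing notes. Aligner, counting tool, strand setting and annotation: not given in the sources used here. PCR of cDNA can favour short or GC-rich molecules. Of 18485 symbols, 97.3% matched GENCODE, which gave positions on GRCh38, lengths and GC content.

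Groups and replicate numbers came from the sample titles. The test was edgeR's quasi-likelihood test, version 4.0.16 (R 4.3.3; filterByExpr with minimum count 10 and minimum total 15, which removed 11718 genes, TMM scaling, robust quasi-likelihood fit of all 15 libraries with 10 residual degrees of freedom), with Benjamini-Hochberg adjustment over 6767 genes at 0.05. SE is the size of the log2 fold change divided by the square root of F. Alternatives were other scalings, filters, libraries, a replicate block, a GC and length correction, and DESeq2 1.42.0.

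Genes named were ZBTB18, all genes past the threshold, the 10 of lowest p in each direction among the others whose groups did not overlap and that reached 10 counts in every library of the group with more, and per list up to 4 members past the threshold or else the 2 of lowest p. Genes past the threshold between FL-mut and FL were also named. The members and lists were chosen with earlier results of these data known. No replicates were merged, since within EV and within FL-mut the chi-square per gene between libraries was 19.7 or more (up to 38). Promoters were RefSeq windows (GRCh38.p14).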

Additional observations from a re-analysis of the deposited data

How the results depend on the processing

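For FL-mut against EV, 13 genes passed, and the count was 10 with DESeq2 size factors in edgeR or with library totals, 15 with upper-quartile scaling, 13 with a stricter filter and 10 with a GC and length correction. It was 219 with no filter, 145 with DESeq2 (which gave no adjusted p for 1583 genes), 3 with the 6 libraries compared alone, 2 with EV, FL and FL-mut alone, and from 1 to 28 with 1 library left out. All 13 were among the genes called with no filter and by DESeq2. Only 2 of the 13 were called with the 6 libraries compared alone, and 2 with EV, FL and FL-mut alone. For FL-mut against FL, 6 genes passed, and the count was 348 with no filter, 116 with DESeq2, 0 with the 6 libraries compared alone or with EV, FL and FL-mut alone (edgeR, 785 and 997 genes at an unadjusted p under 0.05), and from 2 to 8 with 1 library left out. The cause of these shifts was not tested. ZBTB18 passed in every fit run, with log2 fold changes from 8.14 to 9.53.

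The replicate numbers were not taken to pair EV and FL-mut: over 3799 genes, same-number libraries had correlations of deviations of -0.17, 0.081 and 0.088. With the replicate block 11 genes passed (6 higher and 5 lower, 10 of them among the 13), and 9 with the block and the GC and length correction. For FL-mut against FL the block gave 7 genes.

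The log2 fold change of CD68 ranged from -0.01 to 0.59 with 1 library left out, so it reversed without FL-mut replicate 3, and was -0.02 in the block fit with GC and length correction. The median of all genes was -0.11 with upper-quartile scaling, 0.08 with DESeq2 size factors and 0.14 with library totals. Under these scalings the sign of the median differed for 10 of 37 lists. None of the 10 is among those described as higher or lower. Depth limits genes at a few CPM, since 1 count is near 1 CPM in the shallower FL-mut libraries.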

Other observations

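Several other groups showed values in single genes, none past the threshold by edgeR. BNIP3, a mitophagy receptor induced by hypoxia, stood at 9.5, 6.56 and 11.6 CPM in EV and 37.4, 205 and 62.7 CPM in FL-mut, with no overlap (log2 3.45 ± 0.95, SE; edgeR adjusted p = 0.19), or log2 2.41 without FL-mut replicate 2. The CDK inhibitor CDKN1A stood at 4, 11.7 and 9.79 CPM in EV and 20.2, 86.0 and 39.1 CPM in FL-mut, also with no overlap. SOX4, a progenitor transcription factor, stood at 95.5, 139 and 442 CPM in EV and 39.4, 37.3 and 62.7 CPM in FL-mut (-2.27 ± 0.55; adjusted p = 0.14), or log2 -1.38 without EV replicate 3. ALDH1L1, an astrocyte folate enzyme, stood higher, at 27.5, 33.5 and 62.3 CPM in EV and 111, 131 and 430 CPM in FL-mut (2.45 ± 0.76; adjusted p = 0.26), or log2 1.51 without FL-mut replicate 3. Among autophagy and lysosome genes 22 of 30 were above 0 (median 0.43), with TAX1BP1 at 137, 355 and 254 CPM in EV and 510, 533 and 568 CPM in FL-mut, whereas SQSTM1 (p62) stood at 1457, 5102 and 822 CPM and 980, 770 and 406 CPM. Both overlap genes on the opposite strand (JAZF1 and MRNIP).

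FL-mut replicate 2 held very high values of some genes, 4 of which are named here after their values were seen. PSMD8, a proteasome subunit, stood at 110, 1606 and 147 CPM in FL-mut replicates 1 to 3. Its high value was not particular to FL-mut, since SF-mut replicates 1 to 3 held 60.5, 1261 and 32.8 CPM. BNIP3, highest in FL-mut replicate 2 as well, stood at 27.8, 376 and 34.9 CPM in SF-mut. In FL-mut replicates 1 to 3 the other named genes stood as follows. COX5B, a cytochrome oxidase subunit, stood at 29.3, 887 and 100.3 CPM, and the glutathione peroxidase GPX4 at 4.04, 2325 and 194 CPM. The amino acid transporter chain SLC3A2 stood at 20.2, 1101 and 120 CPM. The 113 genes at 5 or more times the next FL-mut library in replicate 2 had a median length of 1868 bases, against 3147 for all genes tested.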
